A study of Mus musculus with 6 samples.

Results

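The neuregulins Nrg1, Nrg2, Nrg3 and Nrg4, the ErbB receptors Egfr, Erbb2, Erbb3 and Erbb4, and the neuregulin protease Bace1 were followed in sciatic nerve of mice at postnatal day 3. They are 9 of the 54838 genes in the deposited count table and were chosen by symbol, with earlier results of these data known. RNA was sequenced from 6 libraries, 3 from mice labelled CnpCre Actl6afl/fl, written cKO here, and 3 from mice labelled WT. All were of strain C57 Bl. Cre was driven by Cnp, a gene active in myelinating glia, so Actl6a, which encodes the chromatin remodelling subunit BAF53a, was targeted in only some cells of the nerve. The labels do not say whether WT mice carried Cre or the floxed allele, nor whether a library came from 1 mouse or from several. The p-values therefore rest on how far these libraries scatter, and some of that scatter may be technical.

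Neuregulins are growth factors with an EGF-like domain, and ErbB proteins are the family of receptor tyrosine kinases through which they signal. In peripheral nerve, neuregulin-1 displayed on axons signals to Schwann cells, the glia that ensheathe and myelinate axons, through ErbB3, which binds the ligand but has little kinase activity, paired with ErbB2, which has an active kinase but no known ligand of its own. This signal drives the survival and migration of Schwann cell precursors and sets the thickness of myelin. BACE1 cuts the neuregulin-1 precursor, and mice without it form thin myelin. A soluble form of neuregulin-1 made by Schwann cells themselves is known from injured nerve.

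The ligand transcripts that were called were higher in cKO nerves and the receptor transcripts that were called were lower. Nrg1 rose 14.3-fold and Nrg2 2.38-fold in cKO nerves. Erbb2 was 1.80-fold and Erbb4 3.90-fold lower. Erbb3, the most abundant member per length, Egfr, Nrg4 and Bace1 were not called, and Nrg3 was too low to test. A gene was called when its adjusted p was below 0.05 in edgeR's quasi-likelihood test with Benjamini-Hochberg adjustment over all 18775 genes tested. Of the 8 members tested, 2 were higher and 2 lower. Over all genes tested, 8.55% were called higher and 10.3% lower, and 18.8% in either direction. Without cKO replicate 2, the library described next, 3 members were higher and 3 lower, and over all genes tested in that fit 17.8% were called higher and 17.6% lower.

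Total counts per library ran from 31404107 to 36760296. Each of 11 Schwann lineage markers was detected in at least 1 library. CPM here are counts scaled to each library's effective size. Cnp itself was at 307, 177 and 318 CPM in cKO nerves, against 1400, 1380 and 1460 CPM in WT nerves (log2 fold change -2.40, edgeR adjusted p = 0.00146). Actl6a was at 42.3, 47.5 and 41.4 CPM in cKO nerves, against 48.6, 53.3 and 46.2 CPM in WT nerves, and was not called in whole nerve (-0.17, edgeR adjusted p = 0.243). One library stood apart: the 15 skeletal muscle markers summed to 75600 CPM in cKO replicate 2, against 5090 and 5890 CPM in the other cKO libraries and 4120 to 5860 CPM in WT libraries. Without that library Actl6a was called lower (-0.24, edgeR adjusted p = 0.0487). The 7 erythroid markers summed to 21800 CPM in cKO replicate 1, against 8770 and 6740 CPM in cKO replicates 2 and 3 and 2720 to 3940 CPM in WT libraries. In whole tissue, fewer cells of a type and less RNA per cell cannot be told apart.

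**Figure D1:**
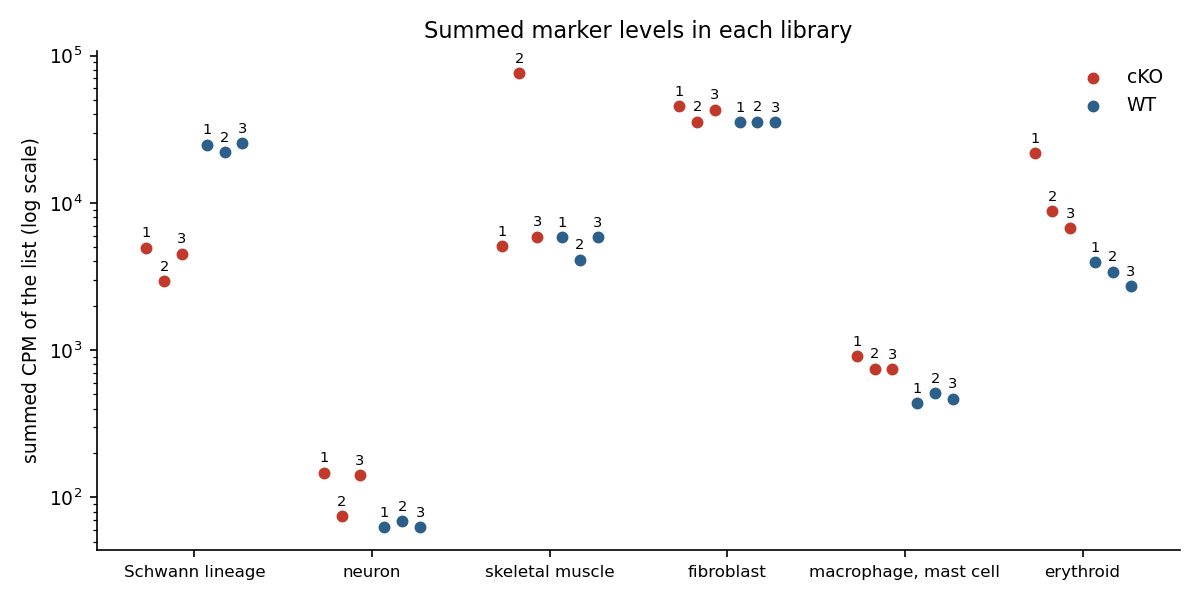
Summed CPM (vertical axis, log scale) of 6 marker lists in each library, with cKO libraries left of WT libraries and each point labelled with its replicate number. Skeletal muscle markers reached 75600 CPM in cKO replicate 2, and Schwann lineage markers were lower in all 3 cKO libraries than in the WT libraries.

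Nrg1, the ligand of the axonal signal, showed the largest change among the members. Its gene (ENSMUSG00000062991) lies on the minus strand of GRCm38 chromosome 8, from 31814551 to 32884029. It was at 15.6, 5.56 and 7.62 CPM in the cKO libraries, from 514, 155 and 267 counts, against 0.691, 0.691 and 0.629 CPM in the WT libraries, from 23, 24 and 23 counts. All 3 cKO libraries lay far above the WT libraries, which were nearly equal, and cKO replicate 1 was the highest. The means were 9.59 ± 5.30 CPM in cKO nerves and 0.670 ± 0.0360 CPM in WT nerves (SD, n = 3 each). On the log2 scale the rise was 3.83 (SE 0.43, 95% interval 2.80 to 4.86), with an edgeR adjusted p of 0.00256. Each of the 6 fits without 1 library called it too, at log2 fold changes of 3.29 to 4.11. The lowest of these came without cKO replicate 1, which was also the library richest in erythroid markers. The part of blood in the Nrg1 result was not tested.

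Counts were summed over all exons of a gene, so the axon-bound and soluble forms of neuregulin-1, which come from different promoters of the same gene, were not separated. Of the exonic bases of Nrg1, 4.66% overlap the antisense gene Gm26578, and strand was not used in counting. Gm26578 was at 3.37, 0.932 and 1.48 CPM in cKO libraries, against 0.210, 0.0576 and 0.0547 CPM in WT libraries, so it ran in the same direction (log2 fold change 4.15, edgeR adjusted p = 0.0103). Reads of the pair cannot be told apart where they overlap. Markers of neurons, whose axons fill the nerve and carry some RNA, ran with Nrg1 only in part. Log2 fold changes of the 10 neuron markers tested ran from -0.13 to 2.09, with a median of 0.83. Of these 10, 3 rose and 7 were not called. That count depended on single libraries: it was 9 of 11 tested without cKO replicate 2, 1 of 10 without cKO replicate 1, and edgeR called none without cKO replicate 3 or without WT replicate 1, 2 or 3. At an unadjusted p below 0.05, 7 were higher with all 6 libraries, and DESeq2 called 5 of 11. Their summed level was 74.5 to 147 CPM in cKO libraries and 62.5 to 69.0 CPM in WT libraries, and no marker of the list was at 0 in all libraries. The neuronal tubulin Tubb3 was among them (31.8, 11.1 and 21.6 CPM in cKO libraries, against 5.11, 4.15 and 5.88 CPM in WT libraries, log2 fold change 2.09, edgeR adjusted p = 0.0161). Its call did not hold without cKO replicate 3, nor without WT replicate 1, 2 or 3. In cKO replicate 2 the summed neuron level was 74.5 CPM, close to WT, while Nrg1 stood at 5.56 CPM. The part of neuronal RNA in the Nrg1 result was not tested.

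Nrg2, a second ErbB ligand (ENSMUSG00000060275, chromosome 18, 36017707 to 36197380), was low in both groups. It was at 1.0, 0.896 and 1.2 CPM in cKO libraries, from 33, 25 and 42 counts, against 0.511, 0.461 and 0.328 CPM in WT libraries, from 17, 16 and 12 counts. The groups did not overlap, as for 42.7% of all genes tested. Nrg2 rose by 1.25 on the log2 scale (SE 0.28, 95% interval 0.60 to 1.90), with an edgeR adjusted p of 0.0230. The call held without cKO replicate 1 or 2 and was lost without cKO replicate 3 (adjusted p = 0.0764) and without WT replicate 1, 2 or 3 (adjusted p = 0.0675, 0.0906 and 0.0980 in edgeR).

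The other neuregulins were not called or not testable. Nrg4 (ENSMUSG00000032311, chromosome 9, 55220222 to 55326844), a ligand of ErbB4, was at 1.76, 2.37 and 1.66 CPM in cKO libraries, against 2.37, 1.84 and 2.54 CPM in WT libraries. These ranges overlapped (log2 fold change -0.23, 95% interval -0.77 to 0.31, edgeR adjusted p = 0.505). Nrg3 (ENSMUSG00000041014, chromosome 14, 38368952 to 39473088), a ligand of ErbB4 best known from brain, had 5, 1 and 4 counts in cKO libraries, against 2, 1 and 1 counts in WT libraries. It failed the filter on low counts, and a difference was not detectable at this depth. The 8 tested members each passed that filter within cKO libraries alone and within WT libraries alone.

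**Figure D2:**
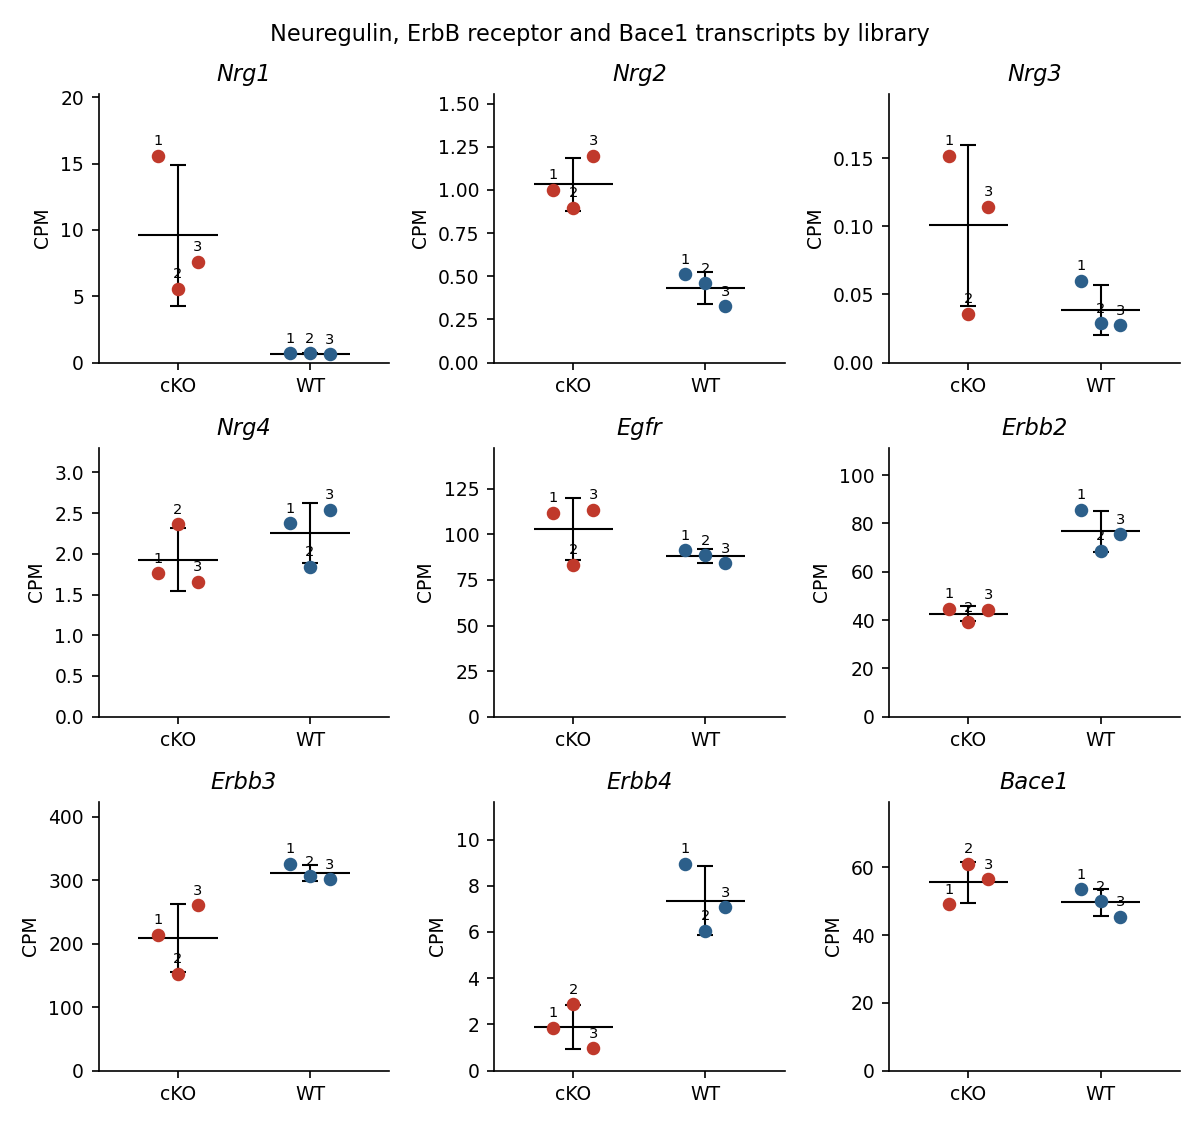
CPM of the 9 members in each library (vertical axes, linear from 0, a scale of its own per gene), with cKO left of WT, replicate numbers beside the points, the group mean as a horizontal line and the SD as an error bar (n = 3). Nrg1 and Nrg2 are higher, and Erbb2, Erbb3 and Erbb4 lower, in all 3 cKO libraries than in any WT library, with Erbb3 the 1 of these 5 that was not called. Over all genes tested, the groups did not overlap for 42.7%.

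Erbb3, the ligand-binding receptor of Schwann cells (ENSMUSG00000018166, chromosome 10, 128567523 to 128589652), was at 214, 153 and 260 CPM in cKO libraries, against 326, 306 and 302 CPM in WT libraries. Every cKO library lay below every WT library, but the cKO libraries spread widely and the muscle-rich replicate 2 was the lowest. Such a lack of overlap, in either direction, was found for 42.7% of all genes tested. The means were 209 ± 53.9 CPM in cKO nerves and 312 ± 13.0 CPM in WT nerves (SD, n = 3 each). With a log2 fold change of -0.57 (SE 0.19, 95% interval -1.02 to -0.13) and an edgeR adjusted p of 0.0758, no difference was called. Without cKO replicate 2 it was -0.39 and was called (edgeR adjusted p = 0.00464), as it was with the summed muscle marker level of each library as a covariate (-0.39, adjusted p = 0.00895). Without cKO replicate 3 it was -0.76 (edgeR adjusted p = 0.0442). DESeq2 called it on all 6 libraries (-0.59, adjusted p = 0.0218).

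Erbb2, the partner that supplies the kinase (ENSMUSG00000062312, plus strand of chromosome 11, 98412470 to 98437716), fell. It was at 44.7, 39.1 and 44.2 CPM in cKO libraries, against 85.7, 68.7 and 75.5 CPM in WT libraries. The groups were well apart, and cKO replicate 2 was close to the other cKO libraries. The means were 42.7 ± 3.09 CPM in cKO nerves and 76.7 ± 8.54 CPM in WT nerves (SD, n = 3 each). Erbb2 thus had a log2 fold change of -0.84 (SE 0.11, 95% interval -1.10 to -0.59) and an edgeR adjusted p of 0.00365. Its call stood whichever library was omitted, at -0.93 to -0.76.

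Whether one partner of the heterodimer changed more than the other was tested directly. The log2 ratio of Erbb3 to Erbb2 CPM was 2.26, 1.97 and 2.55 in cKO libraries, against 1.93, 2.16 and 2.0 in WT libraries. The ranges overlapped, and the difference of the means was 0.23 (exact permutation test over libraries, 2-sided p = 0.3, smallest possible 0.1). The log2 ratio of Nrg1 to Erbb3 CPM was -3.77, -4.77 and -5.08 in cKO libraries, against -8.76, -8.67 and -8.78 in WT libraries. This ligand to receptor ratio differed by 4.2 with no overlap, which gave the smallest p that 3 against 3 libraries allow (exact permutation p = 0.1). Every cKO library was above every WT library for Nrg1 and below it for Erbb3. The ratio therefore could not overlap, and its p adds nothing to the results of the separate genes.

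Schwann lineage markers ran with Erbb2 and Erbb3 in part. Of 11 tested, 6 fell, 1 rose and 4 were not called, with a median log2 fold change of -0.87, against 0.04 over all genes tested. Their summed level was 2950 to 4970 CPM in cKO libraries and 22000 to 25500 CPM in WT libraries, and no marker was at 0 in all libraries. Sox10, the transcription factor of the lineage, was at 160, 85.6 and 164 CPM in cKO libraries, against 271, 239 and 277 CPM in WT libraries. Its log2 fold change of -0.94 (SE 0.25, edgeR adjusted p = 0.0440) remained past the threshold in 1 of 6 such omissions, that of cKO replicate 2 (-0.70). The log2 fold changes of Erbb2 (-0.84) and Erbb3 (-0.57) were thus of the size of that of Sox10, and smaller than that of S100b (-2.41). Other lineage markers did not fall with them: Gfra3 was the 1 that rose (1.54). Those not called were Cdh19 (0.07), Ngfr (-0.18), Ncam1 (-0.56) and L1cam (-0.78). The difference between these genes was not tested, nor was the part of a change in Schwann cell number in the receptor results.

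Erbb4, a receptor with its own kinase that binds all 4 neuregulins (ENSMUSG00000062209, minus strand of chromosome 1, 68032186 to 69108059), showed the largest fall among the receptors. It was at 1.85, 2.87 and 0.971 CPM in cKO libraries, from 61, 80 and 34 counts, against 8.96, 6.05 and 7.08 CPM in WT libraries, from 298, 210 and 259 counts. Each WT library held more than any cKO library, and among cKO libraries the muscle-rich replicate 2 was the highest. Its log2 fold change of -1.96 (SE 0.38, 95% interval -2.87 to -1.05) had an edgeR adjusted p of 0.0159. The call was lost without WT replicate 1 (-1.80, adjusted p = 0.0717) or WT replicate 3 (-1.99, adjusted p = 0.0635) and held in the other 4 such fits. Omitting cKO replicate 2 gave -2.39 (edgeR adjusted p = 9.75e-05).

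Egfr, the receptor of EGF and TGF-alpha, is, like Erbb2, not bound directly by neuregulins. Egfr (ENSMUSG00000020122, chromosome 11, 16752203 to 16918158) was not lower in cKO nerves. It was at 112, 83.3 and 114 CPM in cKO libraries, against 91.4, 88.6 and 84.1 CPM in WT libraries. Replicates 1 and 3 of the cKO group lay above all WT libraries, and replicate 2 lay just below them. Egfr had a log2 fold change of 0.22 (95% interval -0.09 to 0.54), with an edgeR adjusted p of 0.264. Without cKO replicate 2 it was 0.36 and was called (edgeR adjusted p = 0.00230), as with the muscle covariate (0.36, adjusted p = 0.00254). Fibroblast markers, of a cell type that expresses Egfr, ran with it only in part. Of these, 4 of 10 rose and 6 were not called, and 7 of 10 were called higher without cKO replicate 2. In cKO replicate 2, where Egfr was at 83.3 CPM, the 4 that rose stayed above all WT libraries. Dpt, Clec3b, Pi16 and Dpp4 were at 409, 328, 246 and 127 CPM there, against WT means of 157, 161, 104 and 49.9 CPM. Among those not called, Pdgfra, Col1a1 and Col1a2 were at 227, 6750 and 6420 CPM there, below every WT library, as Egfr was. Dcn and Lum lay within the WT range there, and Col3a1 lay above it. The 10 markers summed to 45500, 35600 and 42800 CPM in cKO libraries 1, 2 and 3 and 35300 to 35600 CPM in WT libraries. None of the 10 was at 0 in all libraries, and their part in the Egfr values was not tested.

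**Figure D3:**
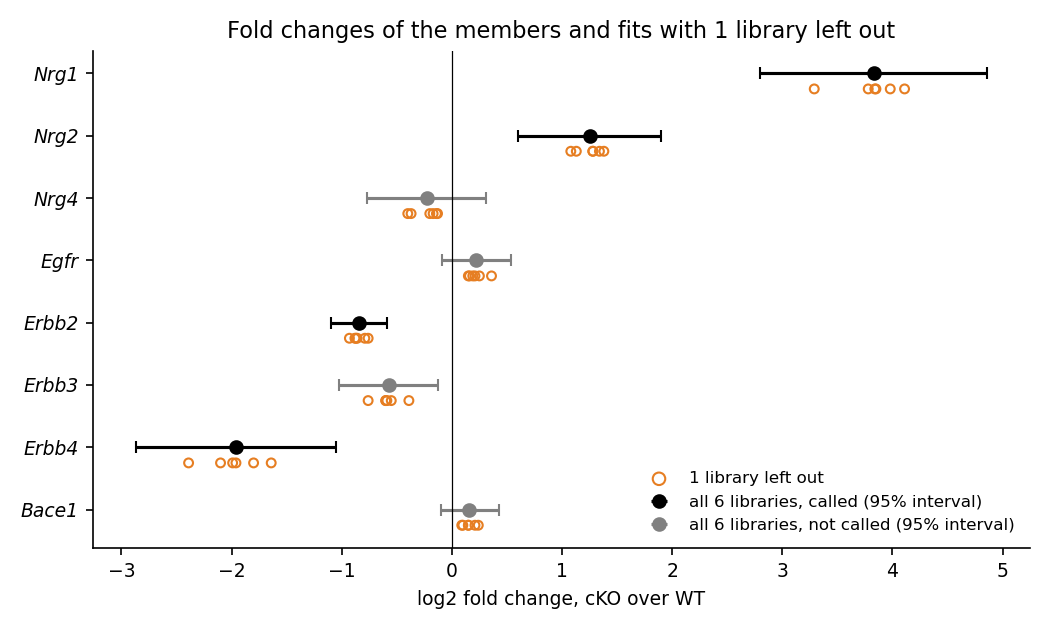
Log2 fold change of cKO over WT (horizontal axis) for the 8 members tested, with 95% intervals, black where called and grey where not, and open circles for the 6 fits that each left out 1 library. Nrg1 stays between 3.29 and 4.11 and Erbb2 between -0.93 and -0.76 in those fits, and no member changes sign.

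The promoter windows of Erbb2 and Erbb4, the receptor genes that fell, are shown because these genes moved in the same direction. Each holds the 250 bases before the RefSeq start (GRCm38.p6), written 5′ to 3′ on the gene's strand. Capitals mark a match to the core of the TEAD factors, GGAATG, or to the SOX cores ACAAAG and ACAATG, on either strand.
Erbb2, chr11:98412234-98412483: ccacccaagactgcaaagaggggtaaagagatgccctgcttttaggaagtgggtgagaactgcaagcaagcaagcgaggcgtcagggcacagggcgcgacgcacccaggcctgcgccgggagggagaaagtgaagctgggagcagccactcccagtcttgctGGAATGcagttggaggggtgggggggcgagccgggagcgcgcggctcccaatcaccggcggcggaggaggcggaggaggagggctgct
Erbb4, chr1:69108060-69108309: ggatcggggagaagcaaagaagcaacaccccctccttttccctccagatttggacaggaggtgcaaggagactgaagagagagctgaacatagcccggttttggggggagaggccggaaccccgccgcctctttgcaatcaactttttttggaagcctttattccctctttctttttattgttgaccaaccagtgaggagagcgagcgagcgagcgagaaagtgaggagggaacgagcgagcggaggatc
The Erbb2 window held 1 GGAATG, starting 88 bases before the RefSeq start on the gene's strand, and neither SOX core. The Erbb4 window matched none of these 3. The E-box pattern CANNTG, with N any base, was searched too and is not in capitals. It had 1 match in the Erbb2 window, starting 82 bases before the RefSeq start, and 0 in the Erbb4 window. Among 32536 promoter windows of 250 bases, 12.6% held GGAATG, 16.5% ACAAAG and 10.5% ACAATG on either strand, and 66.2% held CANNTG. The matches in Erbb2 are a description of these letters and not evidence of a binding site. The GC content was 66% in the Erbb2 window and 54% in the Erbb4 window.

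Bace1 (ENSMUSG00000032086, chromosome 9, 45838580 to 45864399) was at 49.1, 61.1 and 56.5 CPM in cKO libraries, against 53.5, 50 and 45.4 CPM in WT libraries. The ranges overlapped, and the muscle-rich cKO replicate 2 was the highest. Bace1 had a log2 fold change of 0.16 (95% interval -0.10 to 0.43) and an edgeR adjusted p of 0.331, and none of the 13 alternative settings called it. This count is less certain than the others, since 32.5% of its exonic bases overlap antisense genes. The interval leaves room for a change of up to 0.43 on the log2 scale.

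Levels were compared between genes as CPM per kilobase of exon. In cKO nerves the order was Erbb3 (34.8 ± 8.95), Egfr (9.09 ± 1.51), Bace1 (8.75 ± 0.955), Erbb2 (8.19 ± 0.594), Nrg1 (0.927 ± 0.512), Nrg2 (0.335 ± 0.0498), Nrg4 (0.317 ± 0.0632), Erbb4 (0.154 ± 0.0769) and Nrg3 (0.0148 ± 0.00868), in CPM per kilobase (SD, n = 3). Egfr, Bace1 and Erbb2 overlapped one another there, and so did Nrg2 and Nrg4. In WT nerves the order was Erbb3 (51.8 ± 2.15), Erbb2 (14.7 ± 1.64), Bace1 (7.82 ± 0.636), Egfr (7.78 ± 0.324), Erbb4 (0.596 ± 0.119), Nrg4 (0.371 ± 0.0601), Nrg2 (0.141 ± 0.0307), Nrg1 (0.0648 ± 0.00348) and Nrg3 (0.00568 ± 0.00272). Bace1 and Egfr did not differ there beyond their spread. Nrg1 was thus the highest of the 4 neuregulins in cKO nerves and below Nrg2 and Nrg4 in WT nerves. Erbb4 stood below Nrg4 and Nrg2 in cKO nerves and above both in WT nerves. Of the genes tested, 23.5% had a lower level per kilobase than Nrg1 in cKO nerves and 1.46% in WT nerves. For Erbb3 these shares were 91.5% in cKO nerves and 94.7% in WT nerves. Exon lengths were summed over all isoforms of a gene, so a gene with many alternative exons, such as Nrg1, is set too low on this scale.

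**Figure D4:**
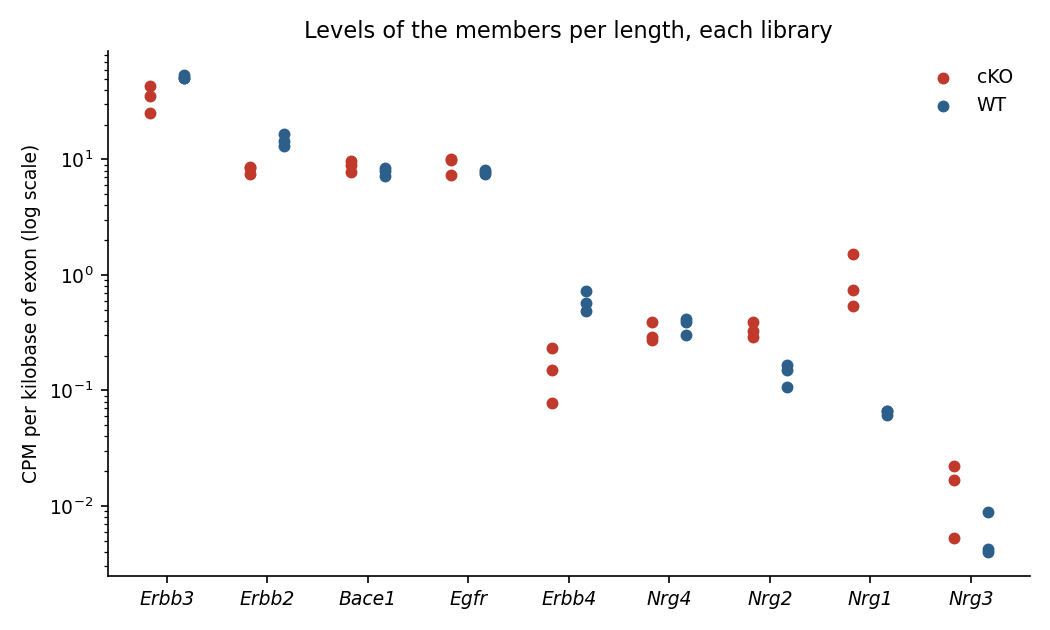
Level of each member per kilobase of exon (vertical axis, CPM per kilobase, log scale) in every library, with cKO left of WT for each gene and genes ordered by their WT mean. Erbb3 is the highest in both groups, and Nrg1 is below Nrg2 in WT libraries and above it in every cKO library.

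The genes nearest to each called member were found by the root mean square distance between log2 CPM profiles over the 6 libraries, each centred on its own mean. The 3 nearest to Nrg1 were Olfr1318, an olfactory receptor gene (distance 0.12, r = 0.998), the chemokine gene Cxcl14 (0.25, r = 0.997) and the glutamate receptor gene Grm7 (0.273, r = 0.99). Cxcl14 was the most abundant of them, with means of 81.6 CPM in cKO nerves and 8.40 CPM in WT nerves. Nearest to Nrg2 were the leukocyte integrin gene Itgal (0.066, r = 0.995), the transporter gene Slc15a3 (0.114, r = 0.983) and Abcg3 (0.117, r = 0.99). Itgal is a marker of immune cells, and 7 of 8 macrophage and mast cell markers rose, with summed levels of 739 to 910 CPM in cKO libraries and 435 to 509 CPM in WT libraries. The count of 7 was 2 without WT replicate 1, 5 without WT replicate 2 and 3 without WT replicate 3. None of those 8 was at 0 in all libraries, and their part in the Nrg2 result was not tested.

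Nearest to Erbb2 were Acly, which makes acetyl-CoA for lipid synthesis (distance 0.052, r = 0.993), the lysosomal amino acid transporter gene Slc36a1 (0.054, r = 0.995) and Arhgef40 (0.061, r = 0.992). Nearest to Erbb4 were the glycosyltransferase gene B3gnt5 (0.270, r = 0.971), the ubiquitin ligase gene Rnf128 (0.306, r = 0.962) and Sec14l5 (0.308, r = 0.985). These distances describe 6 libraries in 2 groups, which differ most between the groups, and carry no p-value.

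Around the members, 82 other genes of the pathway were listed and 78 could be tested. Of these, 5 rose (6.41%), 13 fell (16.7%) and 60 were not called, and their median log2 fold change was -0.02. The share that rose was near the 8.55% of all genes, and the share that fell was above the 10.3% of all genes. Single libraries moved these counts: 13 higher and 22 lower were called without cKO replicate 2, and 3 and 9 without cKO replicate 3. Without WT replicate 1 the calls were 2 higher and 6 lower, with 2 and 7 after omission of WT replicate 2 or of WT replicate 3.

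Among the other EGF family ligands, all of which act through Egfr or Erbb4, 1 of 5 tested fell, 1 rose and 3 were not called. Tgfa, a ligand of Egfr, was at 1.94, 1.08 and 2.23 CPM in cKO libraries, against 12.2, 11.7 and 12.8 CPM in WT libraries. No cKO library came near the WT range (log2 fold change -2.80, SE 0.26, edgeR adjusted p = 0.00130), and no omission of 1 library ended the call. Hbegf, which binds Egfr and Erbb4, was at 38.1, 26.4 and 25.2 CPM in cKO libraries, against 17.3, 17.1 and 16.6 CPM in WT libraries (log2 fold change 0.81, SE 0.17, edgeR adjusted p = 0.0186). That call was lost without WT replicate 1, 2 or 3. Egf was at 4.31, 32.2 and 3.43 CPM in cKO libraries, against 7.12, 4.81 and 4.73 CPM in WT libraries, so its high value was confined to the muscle-rich library. Btc and Epgn were not called, and Areg and Ereg were too low to test.

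Among 13 proteases and partners that process neuregulins and other ErbB ligands, 3 fell, 1 rose and 9 were not called. Adam10, a sheddase of EGF family precursors, was at 193, 164 and 217 CPM in cKO libraries, against 412, 407 and 428 CPM in WT libraries (log2 fold change -1.12, SE 0.12, edgeR adjusted p = 0.00211). Rhbdf2, which brings the sheddase ADAM17 to the cell surface, was at 21.1, 17.0 and 19.0 CPM in cKO libraries, against 39.5, 35.8 and 42.0 CPM in WT libraries (-1.04, adjusted p = 0.00217). Neither call depended on any 1 library. Adam17, the sheddase that also cuts neuregulin-1, was not called (0.31, edgeR adjusted p = 0.0886). The gamma-secretase subunit gene Aph1b (-0.70) fell and Adam19 (0.44) rose, but neither call survived the omission of cKO replicate 3 or of WT replicate 1, 2 or 3, and that of Adam19 also needed cKO replicate 1. Aph1b shares 18.4% of its 50-base transcript words with Aph1c, and 15.0% of the exonic bases of Adam19 overlap other genes, which leaves their counts uncertain.

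In the RAS and ERK arm downstream of the receptors, 4 of 16 fell (25.0%, against 10.3% of all genes tested) and 12 were not called. This number was 7 without cKO replicate 2 and 1 without WT replicate 1, 2 or 3. Nras (log2 fold change -0.66, adjusted p = 0.00722), Braf (-0.56, adjusted p = 0.0143) and the ERK1 gene Mapk3 (-0.61, adjusted p = 0.0355) were among those that fell in edgeR. Nras was called whichever library was omitted, and Braf and Mapk3 were not called without WT replicate 1, 2 or 3. In the PI3K, AKT and phospholipase C arm, 3 of 17 fell (17.6%) and 14 were not called. Omitting cKO replicate 2 gave 5 lower and 2 higher in this arm, DESeq2 gave 3 lower and 1 higher, and omitting cKO replicate 3 or any of the WT libraries gave 1 lower. The PI3K regulatory subunit genes Pik3r1 (-0.46) and Pik3r3 (-0.35) fell (edgeR adjusted p = 0.0373 and 0.0427), but were not called without cKO replicate 3 or WT replicate 1, 2 or 3, and 24.3% of the exonic bases of Pik3r3 overlap another gene. The median log2 fold change was -0.18 in the RAS and ERK arm and 0.10 in the PI3K arm, against 0.04 over all genes tested.

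Of 9 genes that restrain ErbB receptors or control their turnover, 2 rose, 1 fell and 6 were not called. Lrig1, a membrane protein that promotes degradation of ErbB receptors, was at 178, 171 and 145 CPM in cKO libraries, against 92.2, 89.7 and 87.5 CPM in WT libraries (log2 fold change 0.87, SE 0.10, edgeR adjusted p = 0.00250). Rnf41, the ubiquitin ligase NRDP1 that controls the steady level of ErbB3 protein, was at 31.7, 26.9 and 28.4 CPM in cKO libraries, against 53.3, 50.6 and 51.9 CPM in WT libraries (-0.84, SE 0.09, edgeR adjusted p = 0.00207). Omitting any 1 library left both called, and in neither gene did the groups overlap, as for 42.7% of all genes tested. Stub1, a ubiquitin ligase that acts with the HSP90 chaperone, rose (0.38, edgeR adjusted p = 0.0382), but 41.0% of its exonic bases overlap other genes, and the call needed cKO replicate 3 and all 3 WT libraries.

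Of 6 receptor partners tested, 1 rose. Cd44, a cell surface glycoprotein that binds ErbB2 in Schwann cells, was at 154, 167 and 188 CPM in cKO libraries, against 109, 109 and 94.4 CPM in WT libraries (log2 fold change 0.70, SE 0.11, edgeR adjusted p = 0.00712), called also after each omission of 1 library. The ErbB2 scaffold gene Erbin (-0.39, edgeR adjusted p = 0.0762) was not called. Among 12 feedback regulators and targets of ERK, 1 fell and 11 were not called. That 1 was the phosphatase gene Dusp4 (18.9, 11.5 and 18.2 CPM in cKO libraries, against 39.5, 33.3 and 32.6 CPM in WT libraries, log2 fold change -1.12, edgeR adjusted p = 0.0111). It was lost without WT replicate 1. The ERK phosphatase gene Dusp6 (-0.24) and the ETS factor genes Etv4 (-0.02) and Etv5 (0.03) were not called (edgeR adjusted p = 0.225, 0.909 and 0.792). Without cKO replicate 2, 5 genes of this list were called higher and 1 lower.

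**Figure D5:**
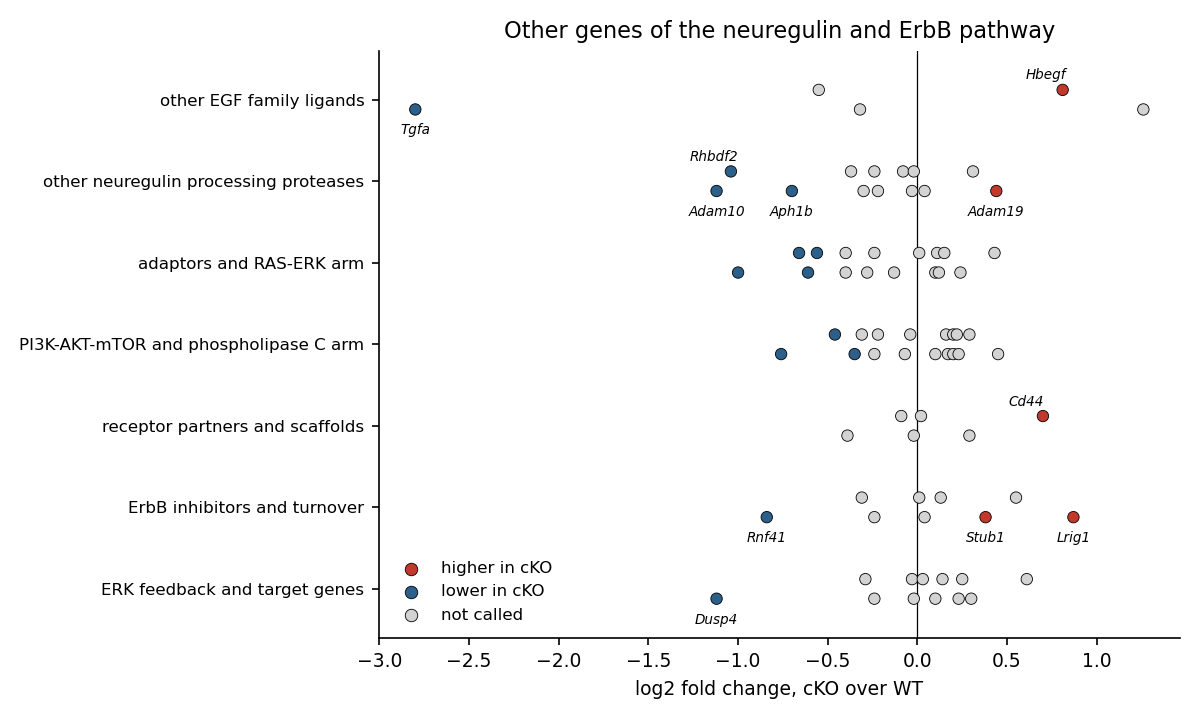
Log2 fold change of cKO over WT (horizontal axis) for the 78 tested genes of 7 pathway lists, 1 point per gene, red where called higher in cKO, blue where called lower and grey where not called, with the called genes of 5 lists named. In the RAS and ERK arm and the PI3K arm the called points, 4 and 3, all lie below 0 in the fit of all 6 libraries.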

How the data were processed

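The authors deposited whole-number counts of fragments per gene, with no normalization. Per the file headers, these came from featureCounts 1.6.1 on exons of the Ensembl release 95 models (GRCm38), with both ends aligned, mapping quality of at least 20 and no use of strand. Subread 2.0 and DESeq2 1.3 appear, with no role, in the submitters' processing notes. An aligner is not otherwise given in those notes or headers. Symbols came from a gene name table that matched 54723 of 54838 identifiers, and promoter sequences from RefSeq (GRCm38.p6), whose table matched 5 of the 9 members and not Nrg1, Nrg2, Erbb3 or Bace1.

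Testing used edgeR 4.0.16 in R 4.3.3, with filterByExpr at a minimum count of 10 and scaling by TMM. A robust fit was followed by 2-sided quasi-likelihood tests on 4 residual degrees of freedom. The code was tried on simulated counts that held no muscle-rich library, so that trial does not cover the effect of such a library. DESeq2 1.42.0 and 12 other fits were alternatives. Log2 CPM for ratios and profiles used a prior count of 2. Named genes were the members, Actl6a, Cnp, Sox10, up to 4 of each pathway list and 2 of each marker list by smallest p, and the 3 nearest profiles among genes averaging at least 1 CPM. Some genes of this rule are not reported here, and others were named after their values were seen. The members and lists were chosen with earlier results of these data known. No library duplicated another of its group: each such pair stood apart beyond counting noise (chi-square per degree of freedom 8.26 to 312).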

Additional observations from a re-analysis of the deposited data

How the results depend on the processing

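Nrg1 and Erbb2 kept direction and call under all 13 alternatives, Nrg1 at log2 fold changes of 3.29 to 4.13 and Erbb2 at -0.93 to -0.76. Members called higher numbered 1 to 3 in the fits that left out 1 library and 1 with the replicate block. Members called lower numbered 1 to 3 in those that left out 1 library. Over all genes, leaving out 1 library gave 449 to 3425 higher and 790 to 3398 lower, against 1605 and 1929 with all 6. The muscle covariate gave 3348 and 3347, the replicate block 744 and 1108, and library totals alone 1118 and 1161. The cause was not tested. Same-numbered libraries did not deviate together (r = -0.22, -0.23 and -0.08). These values cannot exclude a pairing, since the cKO libraries also differed in muscle and erythroid markers, and the replicate numbers do not state one. With the block, the adjusted p of Nrg2 was 0.0770. Differences in the 2 ratios kept their sign, from 0.09 to 0.38 for Erbb3 to Erbb2 and from 3.81 to 4.47 for Nrg1 to Erbb3. Depth limits Nrg2 and Nrg3 most.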
